A study of Mus musculus with 4 samples.

Results

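The genes described here are 48 genes of G2 and mitosis, listed by symbol for their roles in the cell cycle. The list was chosen with earlier results of these data known, and the study's text names some of them. All 48 were found among the 27514 genes listed in each of the 4 single-cell libraries of the study. By role, 8 act at entry into mitosis (Ccna2, Ccnb1, Ccnb2, Cdk1, Cks2, Cdc25b, Cdc25c, Foxm1). Another 3 were grouped under exit (Cdc20, Ube2c, Cdca3), and 2 are mitotic kinases (Aurka, Plk1). A further 4 form the chromosomal passenger complex (Aurkb, Birc5, Incenp, Cdca8), 3 belong to the spindle checkpoint (Bub1, Bub1b, Ttk) and 5 to the centromere and kinetochore (Cenpa, Cenpe, Cenpf, Ndc80, Nuf2). There are 7 kinesin motors (Kif2c, Kif4, Kif11, Kif20a, Kif20b, Kif22, Kif23) and 8 other spindle proteins (Tpx2, Nusap1, Prc1, Aspm, Hmmr, Ckap2, Ckap2l, Tacc3). The remaining 3 serve cytokinesis (Anln, Racgap1, Ect2) and 5 serve chromosome structure (Top2a, Mki67, Smc4, Ncapd2, Ncapg).

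A cell that has copied its DNA passes through G2 and enters mitosis when cyclin-dependent kinase CDK1, bound to cyclin A or B, becomes active. Many of these genes are transcribed together late in the cycle under the MuvB, B-MYB and FOXM1 transcription factors, and their products build the spindle, hold kinetochores to microtubules, delay anaphase until every chromosome is attached and then divide the cell. In the adult testis most undifferentiated spermatogonia divide slowly or not at all at a given moment, while those that regenerate the germline after injury and those that commit to differentiation cycle more often, so the level of this gene set is widely read as a measure of cycling.

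Undifferentiated spermatogonia (A_undiff) came from testes of adult wild-type C57BL/6J mice aged 6 to 8 weeks and were sorted as E-cadherin positive, CD49f (α6-integrin) positive and c-KIT negative. Mice were either left untreated (CTRL) or received busulfan once at 10 mg/kg and were taken at day 10 (BU), when the few spermatogonia that survive this alkylating agent rebuild the population. There were 2 experiments with 1 CTRL and 1 BU library each (CTRL 1 and BU 1, CTRL 2 and BU 2), and a library pooled 3 mice, so n = 2 libraries per group and single mice cannot be told apart. Both libraries of an experiment shared a sequencing lane and, by the labels, a kit version, 2 in experiment 1 and 3.1 in experiment 2, although the study's methods give version 2 throughout. Because untreated and treated testes were sorted by the same gate, the comparison is of the cells in that gate and not of their number per testis.

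Cells with over 1000 genes and under 20% mitochondrial counts were kept, 3101 (CTRL 1), 1120 (CTRL 2), 2008 (BU 1) and 1264 (BU 2). Where values of a group are given as a pair, library 1 comes first. The median cell held 8066 unique molecular identifiers (UMIs, each a counted transcript) in CTRL 1 and 9857.5 in BU 1, against 30931 and 34176.5 in experiment 2. All 4 pan-spermatogonial markers (Zbtb16, Sall4, Ddx4, Foxo1) were detected in every library, at a summed 542 to 801 UMIs per 1000000 (CPM). All 7 spermatid markers were detected as well, at a summed 2821 CPM (CTRL 1), 17013 CPM (CTRL 2), 1017 CPM (BU 1) and 8746 CPM (BU 2), and 15 to 18 of the 18 somatic markers at 57.2 to 324 CPM. The 8 spermatocyte markers were all detected, at a summed 936 and 2057 CPM without busulfan and 802 and 2159 CPM after it. CTRL 2 and BU 2 shared 677 cell barcodes, of which 498 in CTRL 2 and 179 in BU 2 had under 0.1 times the UMIs of their counterpart, and 45 and 25 of these low copies passed the filters. CTRL 1 and BU 1 shared 11 barcodes with 0 low copies that passed. Shares, percents of cells and counts of genes past the test were repeated without the low copies and without cells rich in spermatid RNA or with several somatic markers.

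The 48 genes took a larger share of all UMIs after busulfan in both experiments. Their summed share was 0.353 and 0.383% in the CTRL libraries and 0.628 and 0.606% in the BU libraries, which is 1.78 times the CTRL share in experiment 1 and 1.58 times in experiment 2. Both BU libraries lay above both CTRL libraries, with 0.368% ± 0.0211 in CTRL and 0.617% ± 0.0155 in BU (mean ± SD, n = 2 libraries). An exact permutation test over the 6 ways to label 4 libraries (two-sided) gave p = 0.33, the smallest value this design allows. The median cell had a share of 0.265% (CTRL 1), 0.294% (CTRL 2), 0.510% (BU 1) and 0.437% (BU 2), and the cell at the upper decile 0.594 and 0.687% without busulfan and 1.11 and 1.09% after it. Both the middle and the upper end of the distribution over cells were higher in BU than in CTRL. Without cells rich in spermatid RNA or with 3 or more somatic markers, the share was 0.357 and 0.422% (CTRL) and 0.633 and 0.629% (BU). This left out 53 and 184 cells of the CTRL libraries and 39 and 205 of the BU libraries.

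The percent of cells in which these genes took more than 0.5% of UMIs was 14.2 and 19.1% in the CTRL libraries and 51.4 and 42.7% in the BU libraries. The exact binomial 95% intervals, which cover counting error only, were 13.0 to 15.5% and 16.8 to 21.5% in the CTRL libraries and 49.2 to 53.6% and 40.0 to 45.5% in the BU libraries, with no overlap between groups. This threshold cuts a continuous range and marks no cell type, since 163, 74, 242 and 126 cells of the same libraries lay between 0.45% and 0.55%. With cells of at least 5000 UMIs thinned to 5000, so that depth was equal, and the 275, 113, 80 and 94 shallower cells of CTRL 1, CTRL 2, BU 1 and BU 2 left out, the values were 15.1% (CTRL 1), 18.1% (CTRL 2), 50.4% (BU 1) and 44.5% (BU 2). Above 1% the order was the same, with 3.51% and 5% of CTRL cells against 13.5% and 13.0% of BU cells. The plot of shares shows the whole distribution.

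**Figure D1:**
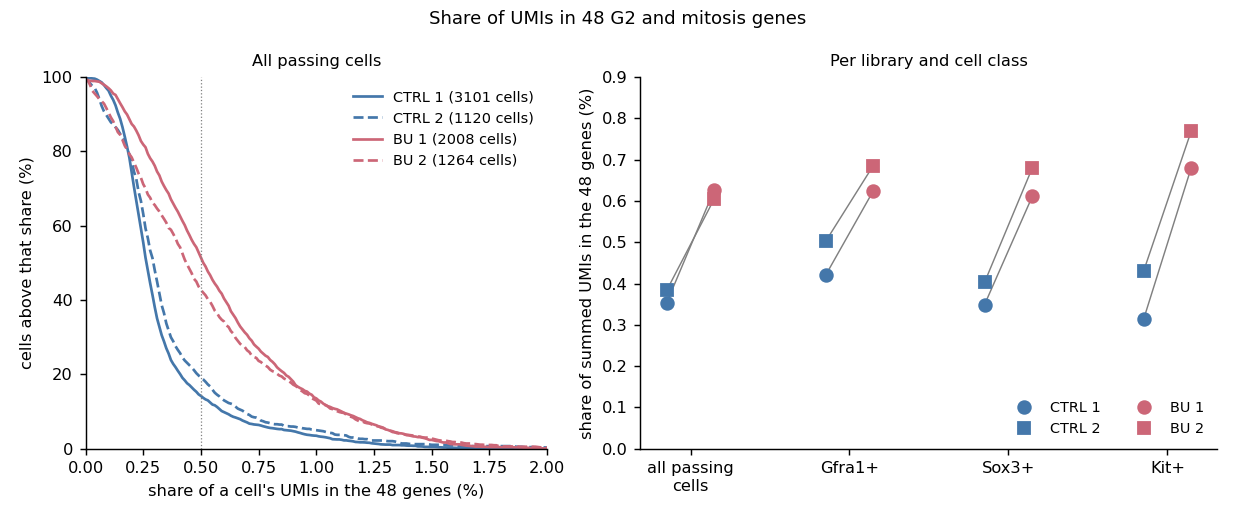
Left, percent of cells (vertical axis) whose share of UMIs in the 48 genes exceeds the value on the horizontal axis (percent of a cell's UMIs), 1 line per library, with a dotted line at 0.5%. Right, share of summed UMIs in the 48 genes (percent) per library in all passing, Gfra1+, Sox3+ and Kit+ cells, with lines joining the libraries of an experiment, where the BU points of all passing cells, 0.628% and 0.606%, lie above the CTRL points, 0.353% and 0.383%.

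Cells were grouped by transcripts of Gfra1, the receptor of the niche factor GDNF and a marker of stem-cell-rich spermatogonia, of Sox3, which marks progenitors primed to differentiate, and of Kit, which marks the step to differentiation. Following the study's threshold, a cell counted as positive when ln(1 + 100000 × share), with share the part of its UMIs from that gene, exceeded 2, so Kit+ cells carry Kit mRNA although the sort removed cells with surface c-KIT. The UMIs needed rise with a cell's depth, so the median cell of experiment 1 would pass with fewer UMIs of a gene than that of experiment 2. A cell could be positive for more than 1 gene. Of Sox3+ cells, 1299 of 1470 and 552 of 646 in the CTRL libraries were positive for Sox3 only. In the BU libraries 245 of 473 and 128 of 264 were. In Sox3+ cells the progenitor markers Sox3, Neurog3, Rarg, Upp1 and Ddit4 summed to 680 and 552 CPM (CTRL) and 258 and 221 CPM (BU). Gfra1+ cells were 18.9% and 19.1% of the CTRL libraries and 43.1% and 41.8% of the BU libraries, and Sox3+ cells 47.4% and 57.7% against 23.6% and 20.9%. Kit+ cells were few in the CTRL libraries (36 and 37) and more in the BU libraries (322 and 156).

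The share of UMIs in the 48 genes was higher in BU than in CTRL in each class and each experiment. In Gfra1+ cells it was 0.420 and 0.502% without busulfan and 0.625 and 0.686% after it, a BU to CTRL ratio of 1.49 and 1.37 in experiments 1 and 2. In Sox3+ cells it was 0.349 and 0.403% in the CTRL libraries and 0.611 and 0.680% in the BU libraries, with ratios of 1.75 and 1.69. In cells positive for Sox3 only it was 0.334 and 0.384% in the CTRL libraries and 0.585 and 0.595% in the BU libraries. In Kit+ cells it was 0.313% (CTRL 1), 0.430% (CTRL 2), 0.681% (BU 1) and 0.769% (BU 2), with ratios of 2.17 and 1.79. The BU libraries lay above the CTRL libraries in each of the 3 classes, at the smallest exact p of 0.33 each. Among CTRL cells the Gfra1+ class had the highest share in both experiments, whereas among BU cells the Kit+ class had, and these orders of shares were not tested. The percent of cells above 0.5% was 21.9 and 27.1% without busulfan and 46.4 and 47.2% after it for Gfra1+ cells, and 12.2 and 16.4% in the CTRL libraries and 52.6 and 52.7% in the BU libraries for Sox3+ cells. For Kit+ cells it was 11.1% (CTRL 1), 32.4% (CTRL 2), 69.3% (BU 1) and 74.4% (BU 2), with exact binomial 95% intervals of 3.11 to 26.1%, 18 to 49.8%, 63.9 to 74.3% and 66.8 to 81.0% in the same order, so the fewer CTRL cells leave wide limits.

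Kit+ cells of CTRL 2 also carried the most spermatid and somatic marker RNA. Summed spermatid markers in Kit+ cells were 335 and 7750.1 CPM without busulfan and 430.0 and 793 CPM after it, with all 7 detected in every library, and summed somatic markers were 42.3 and 3759.8 CPM in the CTRL libraries and 35.0 and 40.8 CPM in the BU libraries. The Leydig cell hormone Insl3 was the highest somatic marker in CTRL 2, at 1595 CPM, and had 0 UMIs in Kit+ cells of the other libraries, where 6 to 12 of the 18 somatic markers were detected and Clu was the highest of them. With cells rich in spermatid RNA or with 3 or more somatic markers left out, the Kit+ share of the 48 genes was 0.313% (36 cells) and 0.521% (31 cells) in the CTRL libraries, against 0.680% (320 cells) and 0.763% (133 cells) in the BU libraries. The groups did not overlap in this form either, and the part of the other RNA in the Kit+ values was not tested further. Gfra1+ cells in this form had 0.420 and 0.525% in the CTRL libraries and 0.629 and 0.686% in the BU libraries. In CTRL 2 the Gfra1+ and Kit+ shares were then nearly equal.

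Because the class make-up of the gate differed between groups, the share was recomputed with the class make-up of the opposite library. Cells were sorted into the 8 combinations of Gfra1, Sox3 and Kit positivity, and each library's own shares within combinations were weighted by the UMIs that its experimental partner had in each. With the BU make-up the CTRL share went from 0.353% to 0.362% in experiment 1 and from 0.383% to 0.406% in experiment 2. With the CTRL make-up the BU share went from 0.628% to 0.607% and from 0.606% to 0.578%. In both experiments the BU value stayed above the CTRL value at either make-up.

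DNA replication genes, which act earlier in the cycle, were also higher. A list of 42 of them, including the MCM helicase, Pcna and ribonucleotide reductase, took 0.373% (CTRL 1), 0.298% (CTRL 2), 0.547% (BU 1) and 0.423% (BU 2) of UMIs. The 48 genes held 0.947 UMIs per replication gene UMI in CTRL 1 and 1.15 in BU 1, and 1.28 and 1.43 in experiment 2. BU was higher within each experiment, but CTRL 2 lay above BU 1, so the groups overlapped. In Kit+ cells the ratio was 0.734 and 1.04 without busulfan and 1.29 and 1.49 after it, without overlap.

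Promoters of the 48 genes were examined because genes of late cell cycle share promoter letters. Sequences from 250 bases before to 50 after the transcription start were taken from RefSeq (GRCm38.p6), which held 42 promoters for 40 of the 48 genes. None was held for Aurkb, Ccna2, Cdc25c, Foxm1, Incenp, Kif20a, Smc4 or Tpx2. Only the 250 bases before the start were searched for motifs, in members and in all promoters. The cell cycle genes homology region (CHR, searched as TTTGAA or TTCGAA on both strands), which the MuvB complex binds, was present in 17 of 42 (40.5%), against 17.1% of all 32851 promoters in the same window. The CCAAT box, read by NF-Y, was present in 34 (81.0%) against 33.8%, and 23 (54.8%) held 2 or more of them against 10.1%. Both motifs occurred together in 16 (38.1%) against 6.02%. The forkhead letters TGTTTAC occurred in 2 (4.76%) against 3.17%. A match describes the sequence only.

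The 200 bases before the start are shown, 5′ to 3′ along the gene, for members whose values are followed below. Top2a (chr11:99024190-99024389 on the minus strand) and Mki67 (chr7:135716380-135716579 on the minus strand) had the highest BU to CTRL ratios among the members shown. Ccnb1 (chr13:100786487-100786686 on the minus strand) lay near the middle, and Cdca8 (chr4:124936918-124937117 on the minus strand) and Cks2 (chr13:51645032-51645231 on the plus strand) near the lower end. Capitals mark each CHR and each CCAAT box on either strand. All coordinates are those of GRCm38.p6.
Top2a: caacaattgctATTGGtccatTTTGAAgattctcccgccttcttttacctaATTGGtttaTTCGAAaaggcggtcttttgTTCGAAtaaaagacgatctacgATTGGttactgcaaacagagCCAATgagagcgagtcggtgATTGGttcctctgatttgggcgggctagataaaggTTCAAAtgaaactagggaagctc
Mki67: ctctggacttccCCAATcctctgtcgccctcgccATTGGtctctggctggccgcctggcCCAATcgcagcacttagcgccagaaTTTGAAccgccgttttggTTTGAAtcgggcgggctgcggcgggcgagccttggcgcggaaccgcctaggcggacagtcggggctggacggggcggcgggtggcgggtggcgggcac
Ccnb1: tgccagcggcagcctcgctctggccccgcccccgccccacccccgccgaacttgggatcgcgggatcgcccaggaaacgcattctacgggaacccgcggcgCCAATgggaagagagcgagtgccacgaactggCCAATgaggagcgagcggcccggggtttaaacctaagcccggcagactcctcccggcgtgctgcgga
Cdca8: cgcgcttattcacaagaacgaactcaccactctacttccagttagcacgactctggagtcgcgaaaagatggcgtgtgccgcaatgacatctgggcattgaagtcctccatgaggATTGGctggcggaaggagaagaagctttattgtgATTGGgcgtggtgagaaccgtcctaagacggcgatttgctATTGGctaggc
Cks2: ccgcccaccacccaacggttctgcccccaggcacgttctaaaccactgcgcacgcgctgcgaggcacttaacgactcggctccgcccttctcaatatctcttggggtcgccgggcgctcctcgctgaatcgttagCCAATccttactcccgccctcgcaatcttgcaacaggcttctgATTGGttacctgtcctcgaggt

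In this window Top2a held 4 CHR and 5 CCAAT matches, and Mki67 held 2 and 3. Ccnb1 held 2 CCAAT boxes, Cdca8 3 and Cks2 2, and no CHR letters were found in these 3. The promoters shown are examples only. In the longer window searched above, Kif11 and Kif4, which also had high ratios, held 1 and 0 CHR matches. Bub1b and Ckap2, which had low ratios, held 1 each, and Ndc80, Tacc3 and Racgap1, also low, held 0. Whether CHR or CCAAT matches went with the size of the ratio was not tested.

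Gene by gene, almost all members were higher after busulfan. Since the list was chosen with earlier results of these data known, the counts describe it and are no independent test. In all passing cells 47 of 48 had a positive log2 change (edgeR, condition as the only term), against 56% of the 17354 genes tested. The median change was 0.83 over the members and 0.07 over all genes, on the log2 scale. In 40 members both BU libraries lay above both CTRL libraries, against 19.9% of all genes, and in 47 the BU library was higher within each experiment, against 36%. In Gfra1+ cells 46 were higher against 50.4% of genes, 37 without overlap against 15.9%, with a median of 0.69, and 45 were higher within each experiment against 30%. In Sox3+ cells 46 were higher against 51.2%, 38 without overlap against 23.8%, with a median of 0.74, and 45 within each experiment against 36.7%. In Kit+ cells all 48 were higher against 48.8%, 39 without overlap against 18.6%, with a median of 0.96, and 43 within each experiment against 31.6%. These Kit+ values rest on 36 and 37 CTRL cells, and only 16 members had at least 20 UMIs in every library there. No member was lower in both BU libraries than in both CTRL libraries in any of the 4 sets, against 13.5%, 16.1%, 22.9% and 18.7% of genes.

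No single member passed edgeR's quasi-likelihood test with condition as the only term at an adjusted p of 0.05, and 0% of all genes did. At an unadjusted p under 0.05, 14 members were higher in all passing cells against 2.64% of genes, 10 in Gfra1+ cells against 1.83%, 20 in Sox3+ cells against 6.76% and 15 in Kit+ cells against 1.33%, and no member was lower. DESeq2 with the same term called 5 members in Sox3+ cells and 0 in the others, against 0.184%, 0.0587%, 1.02% and 0.00907% of genes in all passing, Gfra1+, Sox3+ and Kit+ cells.

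The numbers 1 and 2 mark experiments that differ in kit and lane, and with the experiment as a replicate block edgeR called 3 members in all passing cells (Top2a, Tpx2 and Smc4, against 0.64% of genes), 0 in Gfra1+ cells (0.0367%), 14 in Sox3+ cells (2.58%) and 4 in Kit+ cells (Plk1, Ube2c, Tpx2 and Top2a, 0.109%), every one higher in BU. As lower in BU it called no member and 0.847%, 0.0293%, 3.11% and 0.843% of genes. In Gfra1+ cells the block left 34 members with an unadjusted p under 0.05, against 5.59% of genes, and in all passing, Sox3+ and Kit+ cells 36, 36 and 33 had, against 10.2%, 14.4% and 3.32%. The 14 of Sox3+ cells were Mki67, Kif4, Top2a, Tpx2, Prc1, Plk1, Ckap2l, Smc4, Cenpf, Nusap1, Kif23, Nuf2, Birc5 and Ccna2. The 3 calls in all passing cells were lost when doublets were left out or when cells were limited to under 10% mitochondrial UMIs.

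The counts differed between tools and cell choices. DESeq2 with the block called 18 members in all passing cells (1.46% of genes), 0 in Gfra1+ (0.235%), 22 in Sox3+ (2.61%) and 1 in Kit+ cells (0.0544%). With spermatid-rich and somatic-marker cells left out, edgeR with the block called 22 (3.64%), 0 (0.0687%), 16 (2.96%) and 1 (0.0832%) in the same order. With low barcode copies left out it called 4 (0.657%), 0 (0.0147%), 14 (2.28%) and 1 (0.0725%). The share of members called as higher was above the background in all passing and Sox3+ cells in each of these fits with the block, and 0 members were called in Gfra1+ cells in any.

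A wider list of 75 other G2 and mitosis genes, with no member in common, was higher by less. Its median log2 change was 0.45 in all passing cells, 0.39 in Gfra1+, 0.42 in Sox3+ and 0.40 in Kit+ cells, where 73 were tested. With the block edgeR called 0, 0, 3 and 0 of them, and without it 0 in each class, with 5, 0, 9 and 2 higher at an unadjusted p under 0.05. The 42 replication genes had medians of 0.61, 0.40, 0.67 and 0.35 in the same order. With the block edgeR called 3, 0, 13 and 0 of these, and without it 0, with 12, 3, 21 and 3 higher at an unadjusted p under 0.05. With the block, 0.64%, 0.0367%, 2.58% and 0.109% of all genes were called higher and 0.847%, 0.0293%, 3.11% and 0.843% lower. Without it, 2.64%, 1.83%, 6.76% and 1.33% of all genes were higher at an unadjusted p under 0.05 in edgeR. The difference between the lists was not tested.

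The roles are taken in turn below for all passing cells. Levels are CPM after TMM scaling, ratios are log2 of BU over CTRL within experiments 1 and 2 with 0.5 CPM added, and fitted changes are log2 changes ± SE from edgeR with condition as the only term, for which no member had an adjusted p under 0.05. The plot of ratios by role shows all 48 members.

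**Figure D2:**
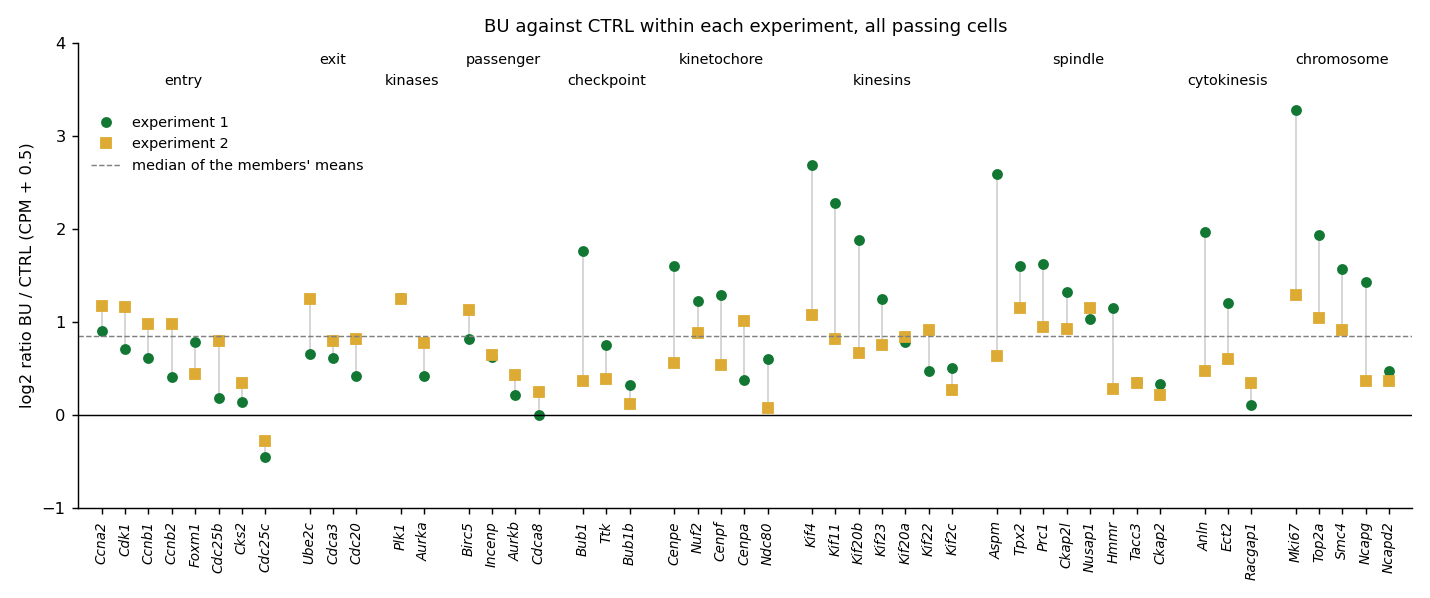
Log2 ratio of BU over CTRL (vertical axis, CPM after TMM scaling with 0.5 added) for each of the 48 genes, ordered by role, in all passing cells, with circles for experiment 1, squares for experiment 2 and a dashed line at the median of the members. All genes but Cdc25c lie above 0 in both experiments, and Mki67 is the highest, at 3.28 in experiment 1.

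Entry genes had a median change of 0.65, and in 6 of 8 the BU libraries lay above the CTRL libraries, against 19.9% of all genes. Ccna2, the cyclin of S phase and G2, stood at 114 and 70.4 CPM in the CTRL libraries and 213 and 159.5 CPM in the BU libraries, a change of 1.02 ± 0.36. Ccnb1, the main partner of CDK1 in mitosis, stood at 200.4 CPM (CTRL 1), 117 CPM (CTRL 2), 306 CPM (BU 1) and 231 CPM (BU 2). Cdk1 itself stood at 59.4 and 51.6 CPM without busulfan and 97.7 and 117 CPM after it, with log2 ratios of 0.71 and 1.17. In each of these 3 genes both BU libraries were above both CTRL libraries. Cks2, a small subunit that binds CDK1, was among the most counted members (7.03% of their UMIs) and overlapped between groups, at 421 and 264 CPM in the CTRL libraries and 466 and 336 CPM in the BU libraries. The phosphatases that activate CDK1 differed in direction. Cdc25b was low, at 5.06 CPM (CTRL 1), 3.08 CPM (CTRL 2), 5.80 CPM (BU 1) and 5.71 CPM (BU 2), with BU above CTRL in each experiment. Cdc25c was the only one of the 48 with lower BU values in both experiments, at 40.8 and 24.7 CPM without busulfan and 29.7 and 20.4 CPM after it, a change of -0.39 ± 0.41 (unadjusted p = 0.394 in edgeR, adjusted p = 1), and its groups overlapped. Foxm1, a transcription factor of the late cycle, stood at 13.3 and 15.7 CPM in the CTRL libraries and 23.3 and 21.6 CPM in the BU libraries, without overlap.

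In the exit group, where Cdca3 was placed by grouping only, Cdc20 and Ube2c serve the anaphase-promoting complex, which marks cyclins for destruction. Its activator Cdc20 stood at 169 CPM (CTRL 1), 95.1 CPM (CTRL 2), 226 CPM (BU 1) and 168 CPM (BU 2), so BU 2 lay just under CTRL 1 although BU was higher within each experiment. The ubiquitin-conjugating enzyme Ube2c stood at 103 and 91.4 CPM without busulfan and 163 and 218 CPM after it, without overlap, with log2 ratios of 0.66 and 1.25. The median of the 3 exit genes was 0.70. Both mitotic kinases were above CTRL in each BU library. Plk1, which acts from mitotic entry to cytokinesis, stood at 25.4 and 23.1 CPM in the CTRL libraries and 61.4 and 55.6 CPM in the BU libraries, and its log2 ratio was alike in the experiments, at 1.26 and 1.25. Aurka, the kinase of spindle poles, stood at 48.2 CPM (CTRL 1), 36.8 CPM (CTRL 2), 64.6 CPM (BU 1) and 63.2 CPM (BU 2), a change of 0.59 ± 0.29 against 1.27 ± 0.28 for Plk1.

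The passenger complex had the lowest median change of the roles, 0.48, and its members spread widely. Birc5 (survivin) stood at 82.5 and 72.5 CPM without busulfan and 146 and 159.7 CPM after it, a change of 0.98 ± 0.26. Its partner Cdca8 (borealin), 4.63% of member UMIs, stood at 255 and 198 CPM in the CTRL libraries and 255 and 235 CPM in the BU libraries, a change of 0.11 ± 0.26, with the groups overlapping. The kinase of the complex, Aurkb, stood at 76.1 CPM (CTRL 1), 62.1 CPM (CTRL 2), 89.0 CPM (BU 1) and 84.2 CPM (BU 2), above CTRL in both BU libraries by little. The checkpoint kinase Bub1 stood at 30.2 and 69.7 CPM without busulfan and 104 and 90.1 CPM after it, with log2 ratios of 1.76 and 0.37, so its size rested mostly on experiment 1. Its relative Bub1b stood at 57.7 and 65.9 CPM in the CTRL libraries and 72.5 and 71.6 CPM in the BU libraries, without overlap but close together. Checkpoint genes had a median of 0.58.

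Centromere and kinetochore genes held 21.8% of member UMIs, the largest part of any role. Cenpf, a protein of the outer kinetochore and the most counted member (10.2%), stood at 239.5 CPM (CTRL 1), 449 CPM (CTRL 2), 588 CPM (BU 1) and 652 CPM (BU 2). Cenpa, the histone H3 variant that marks centromeres, stood at 302 and 189 CPM without busulfan and 393 and 381 CPM after it, and the motor Cenpe at 72.0 and 141 CPM in the CTRL libraries and 219.7 and 208 CPM in the BU libraries. All 3 were higher in both BU libraries than in either CTRL library. Ndc80, which binds microtubules at the kinetochore, stood at 44.5 CPM (CTRL 1), 68.5 CPM (CTRL 2), 68.1 CPM (BU 1) and 72.4 CPM (BU 2), where CTRL 2 and BU 1 were nearly equal. The median of the role was 0.85.

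Kinesins had a median change of 0.99. Kif4, a chromosome-bound motor of the midzone, stood at 6.83 and 18 CPM without busulfan and 46.8 and 38.4 CPM after it, 3.43 times higher on average, and Kif11, which pushes spindle poles apart, at 18.9 and 50.2 CPM in the CTRL libraries and 94.0 and 89.1 CPM in the BU libraries. Kif20b, a motor of cytokinesis, stood at 25.4 CPM (CTRL 1), 75.3 CPM (CTRL 2), 94.9 CPM (BU 1) and 120.3 CPM (BU 2). These 3 did not overlap, and in each the log2 ratio was larger in experiment 1 (2.69, 2.28 and 1.88) than in experiment 2 (1.07, 0.82 and 0.67), and in each CTRL 1 was well below CTRL 2. Kif2c, a microtubule depolymerase, stood at 68.6 and 83.1 CPM without busulfan and 98.0 and 100.4 CPM after it, levels that include spermatid-rich cells, as described below.

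The other spindle proteins had a median change of 1.11. Tpx2, which activates Aurora A on spindle microtubules, stood at 41.1 and 54.1 CPM in the CTRL libraries and 126 and 121 CPM in the BU libraries, a change of 1.37 ± 0.29, and passed edgeR with the replicate block (1.39 ± 0.22, adjusted p = 0.0392). Prc1, which bundles midzone microtubules, stood at 41.3 CPM (CTRL 1), 85.6 CPM (CTRL 2), 128 CPM (BU 1) and 166 CPM (BU 2), and Aspm, a protein of spindle poles, at 12.7 and 34.2 CPM without busulfan and 78.7 and 53.4 CPM after it. All 3 were higher in both BU libraries. Ckap2l stood at 15.9 and 26.5 CPM in the CTRL libraries and 40.5 and 50.9 CPM in the BU libraries, again without overlap. By contrast Ckap2 stood at 49.8 CPM (CTRL 1), 64.3 CPM (CTRL 2), 63.1 CPM (BU 1) and 74.7 CPM (BU 2), with the groups overlapping, and Tacc3, which links spindle microtubules, at 82.1 and 76.7 CPM without busulfan and 105 and 98.0 CPM after it, without overlap, with equal log2 ratios of 0.35 and 0.35. Of the cytokinesis genes, the scaffold Anln stood at 16.9 and 43.5 CPM in the CTRL libraries and 67.5 and 60.7 CPM in the BU libraries, without overlap, and the central spindle protein Racgap1 at 78.0 CPM (CTRL 1), 46.2 CPM (CTRL 2), 84.4 CPM (BU 1) and 59.0 CPM (BU 2), with overlap.

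Chromosome genes had the highest median of the roles, 1.16. In all 5 both BU libraries lay above both CTRL libraries, against 19.9% of all genes. The longest coding transcripts of these 5 had 3703 to 10061 bases, against 1626 to 3334 in the passenger complex. Ratios went with length in experiment 1, as described below, and the part of length in this order was not tested. Mki67, the proliferation antigen that coats mitotic chromosomes, stood at 16.7 and 69.8 CPM without busulfan and 167 and 172 CPM after it, 3.92 times higher on average, with log2 ratios of 3.28 and 1.30. The BU libraries were close to each other and the CTRL libraries were not. Top2a, the topoisomerase that untangles sister DNA, stood at 92.9 and 139 CPM in the CTRL libraries and 358 and 287 CPM in the BU libraries, a change of 1.47 ± 0.33, and passed with the replicate block (1.49 ± 0.25, adjusted p = 0.0427). The condensin subunit Smc4 stood at 72.9 CPM (CTRL 1), 156 CPM (CTRL 2), 217 CPM (BU 1) and 294 CPM (BU 2) and passed with the block as well (1.24 ± 0.22, adjusted p = 0.0484).

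The other 13 members (Ccnb2, Cdca3, Incenp, Ttk, Nuf2, Kif20a, Kif22, Kif23, Nusap1, Hmmr, Ect2, Ncapd2 and Ncapg) were all higher in BU in both experiments, with fitted changes from 0.43 ± 0.30 (Ncapd2) to 1.11 ± 0.29 (Nusap1). In each but Kif22 the BU libraries lay above the CTRL libraries, against 19.9% of all genes. The plot of levels by class shows 9 members across the 3 cell classes.

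**Figure D3:**
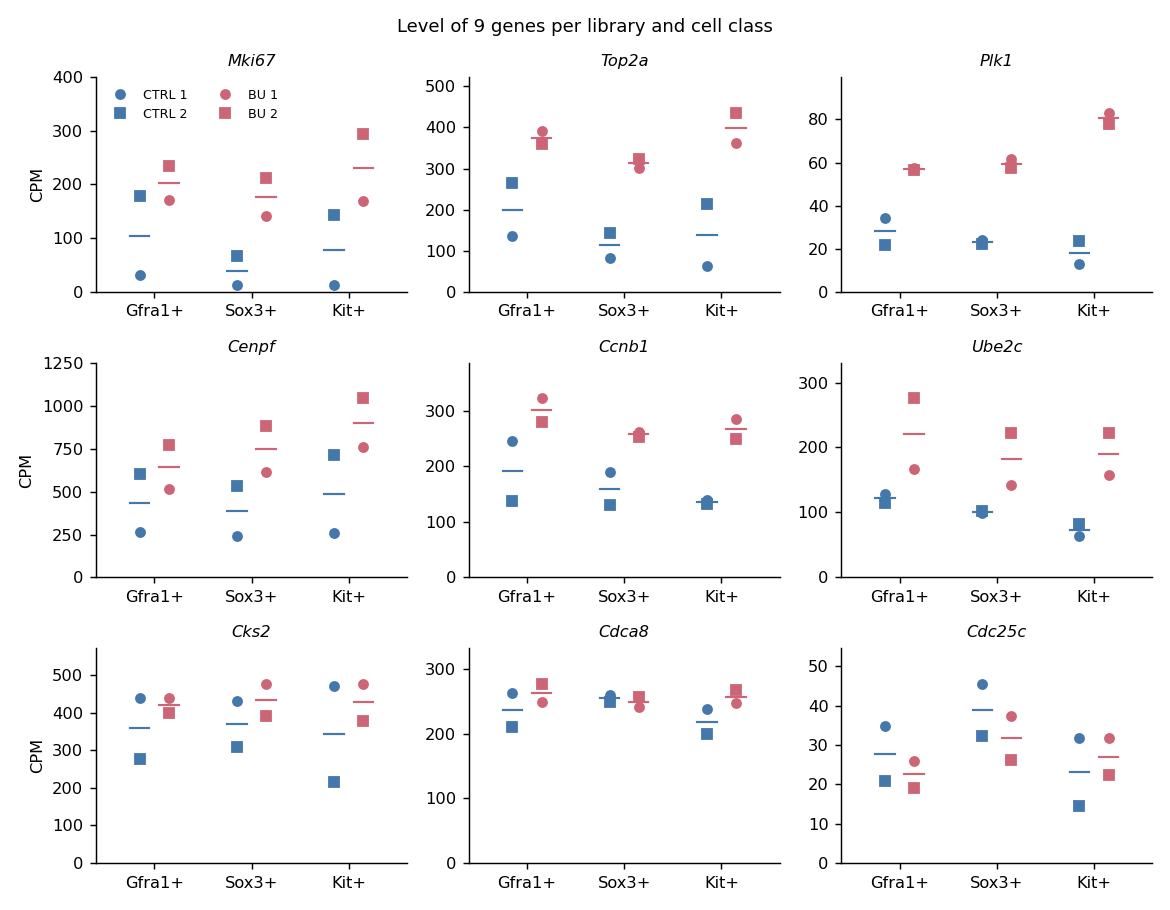
Levels (vertical axes, CPM after TMM scaling, each starting at 0) of 9 of the 48 genes in Gfra1+, Sox3+ and Kit+ cells, with 1 point per library and a bar at the mean of each group (n = 2 libraries). Plk1 lies higher in both BU libraries in every class, whereas the CTRL and BU points of Cdc25c overlap in every class.

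Several members lay apart from the rest. The criterion was a log2 ratio, averaged over the experiments, more than 0.5 above or below the median of the members with at least 20 UMIs in every library, with the ratio of each experiment on that side of its own median by any amount. It is a description without a test. The median ratio was 0.86 in all passing cells, where Kif4, Kif11, Tpx2, Top2a and Mki67 lay above, and Cks2, Cdc25c, Aurkb, Cdca8, Bub1b, Ndc80, Ckap2, Tacc3 and Racgap1 below. The longest coding transcripts had 4365 to 10061 bases in those above and 692 to 3668 in those below, and the part of length was not tested. In Gfra1+ cells only Kif4 lay above, while Cdc25c, Cdca8, Bub1b, Ckap2 and Racgap1 lay below. In Sox3+ cells 8 lay above (Plk1, Kif4, Kif11, Tpx2, Prc1, Ckap2l, Top2a and Mki67) and 6 below (Cks2, Cdc25c, Aurkb, Cdca8, Bub1b and Ndc80). Kit+ cells of CTRL had 20 UMIs in every library for 16 members only, of which Ube2c and Top2a lay above and Cdca8 and Bub1b below. Cdca8 and Bub1b lay below in all 4 sets of cells.

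Kif4 in Gfra1+ cells stood at 7.13 and 29.1 CPM without busulfan and 44.3 and 47.2 CPM after it, with log2 ratios of 2.55 and 0.69, the second of them close to the members' median of 0.59 in that experiment. Mki67 in Gfra1+ cells stood at 31.9 and 178 CPM in the CTRL libraries and 170.2 and 235 CPM in the BU libraries, where CTRL 2 lay above BU 1, so its groups overlapped there. Racgap1 in Gfra1+ cells stood at 89.9 CPM (CTRL 1), 51.3 CPM (CTRL 2), 77.1 CPM (BU 1) and 60.0 CPM (BU 2), with log2 ratios of opposite sign, -0.22 and 0.22. Cdc25c in the same cells stood at 34.8 and 20.8 CPM without busulfan and 26.0 and 19.1 CPM after it, again lower in BU within each experiment but with overlap.

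In Sox3+ cells Plk1 stood at 24.2 and 22.2 CPM in the CTRL libraries and 61.6 and 57.5 CPM in the BU libraries, with log2 ratios of 1.33 and 1.35, and passed with the replicate block in edgeR (1.36 ± 0.18, adjusted p = 0.0282). Mki67 in Sox3+ cells stood at 13.4 CPM (CTRL 1), 65.9 CPM (CTRL 2), 142 CPM (BU 1) and 212 CPM (BU 2), 4.45 times higher on average (2.5 ± 0.41 with the block, adjusted p = 0.0343 in edgeR). Neither gene overlapped between groups. Cdca8 in Sox3+ cells stood at 260.3 and 249 CPM without busulfan and 241 and 256 CPM after it, with log2 ratios of -0.11 and 0.04 and overlap. In Kit+ cells Plk1 stood at 12.7 and 23.4 CPM in the CTRL libraries and 83.0 and 78.1 CPM in the BU libraries and Ube2c at 63.5 CPM (CTRL 1), 81.9 CPM (CTRL 2), 158 CPM (BU 1) and 223 CPM (BU 2), neither with overlap. Both passed with the block in edgeR (adjusted p = 0.031 and 0.0466), but with the spermatid-rich and somatic-marker cells left out as well only 1 member passed in Kit+ cells. The Kit+ class of CTRL 1 was small, and 3 UMIs there would be 9.06 CPM before TMM scaling.

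The size of the ratio went with transcript length in experiment 1 and much less in experiment 2. Across the 48 members, the Spearman correlation between the log2 ratio and the length of the longest coding transcript was 0.74 and 0.11 in experiments 1 and 2 for all passing cells, 0.77 and -0.26 for Gfra1+ cells and 0.74 and 0.16 for Sox3+ cells. Over all 12711 genes with a length, it was 0.32 and -0.13 in all passing cells. These values describe genes of the same libraries, which share depth and library preparation, and carry no p. The 4 members with transcripts over 6000 bases had a median log2 ratio of 2.10 in experiment 1 and 0.60 in experiment 2, and the 13 over 1500 and up to 2500 bases 0.47 and 0.82. The ratio of CTRL 1 over CTRL 2 was also lower for longer transcripts across members, with a Spearman correlation of -0.72 in all passing cells, against -0.12 for BU 1 over BU 2. In Gfra1+, Sox3+ and Kit+ cells (48, 48 and 16 members) the correlation was -0.76, -0.76 and -0.84 for CTRL. For BU it was -0.32, -0.39 and -0.66. Over all genes with a length in these classes, it was -0.37, -0.41 and -0.26 for CTRL and 0.02, -0.09 and -0.18 for BU. In all passing cells the values over all genes were -0.19 for CTRL and 0.13 for BU. Over all genes the BU libraries thus differed little with length in Gfra1+ and Sox3+ cells.

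With the median of all genes in the same length bin subtracted, the median log2 ratio of the members was 0.77 in all passing cells (from 0.86), 0.72 in Gfra1+ (from 0.76) and 0.70 in Sox3+ cells (from 0.75). After this step 46, 46 and 45 of the 48 were higher in BU in both experiments. In Kit+ cells the median over 16 members was 0.83 (from 0.81). For transcripts over 6000 bases in experiment 1, the median log2 ratio in all passing cells was 2.10 in members and 0.42 in all genes. Subtracting the median of all genes could therefore not remove the members' own relation with length. The step was chosen after the relation with length was seen, and the part of length in the single-gene ratios was not tested further.

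**Figure D4:**
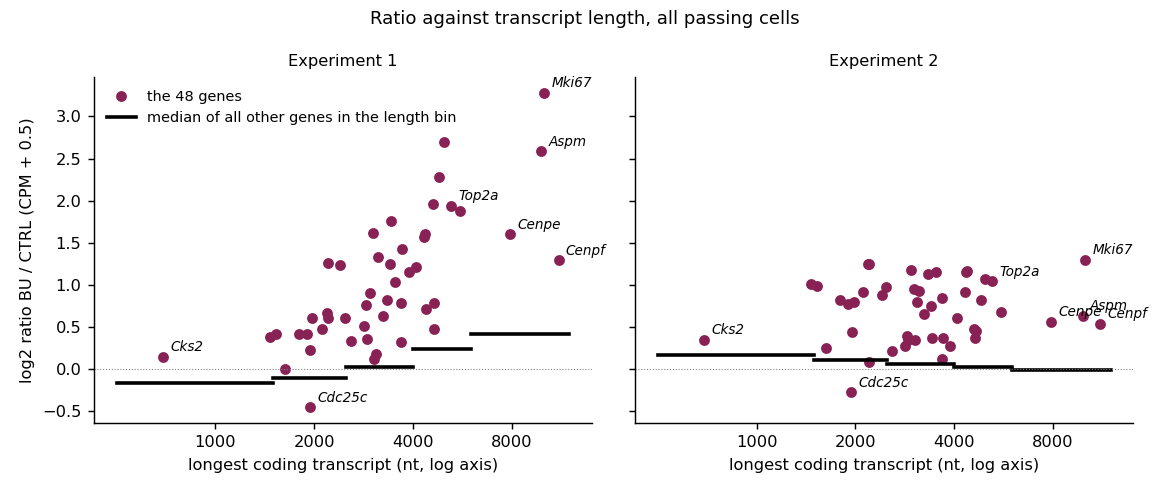
Log2 ratio of BU over CTRL (vertical axes) against the length of the longest coding transcript (horizontal axes, bases, log scale) in experiment 1 (left) and experiment 2 (right), all passing cells, with 1 point per gene of the 48 and black bars at the median of all other genes in each of 5 length bins. In experiment 1 the points lie higher for longer transcripts (Spearman correlation 0.74) and in experiment 2 hardly at all (0.11).

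Cells positive for exactly 1 of the 3 genes were then compared within libraries, with the library as a block (edgeR, 12213 genes). Between Gfra1+ only and Sox3+ only cells, 3 members were higher in Gfra1+ only cells, against 7.19% of all genes, and 1 was lower, against 6.43%. These counts were near the background. In Gfra1+ only cells Mki67 stood at 29.6 and 192 CPM without busulfan and 172 and 221 CPM after it. In Sox3+ only cells it stood at 10.9 and 49.9 CPM in the CTRL libraries and 133 and 151 CPM in the BU libraries, lower than in Gfra1+ only cells of the same library in all 4, and the log2 difference was 1.06 ± 0.23 (edgeR adjusted p = 0.0109). Top2a (0.73 ± 0.22, adjusted p = 0.0452) and Smc4 (0.65 ± 0.16, adjusted p = 0.0195) differed the same way. Cdc25c differed the other way. In Gfra1+ only cells it stood at 27.5 CPM (CTRL 1), 15.4 CPM (CTRL 2), 23.4 CPM (BU 1) and 18.3 CPM (BU 2), and in Sox3+ only cells at 47.5 and 34.2 CPM without busulfan and 41.3 and 32.8 CPM after it, a difference of -0.92 ± 0.22 (adjusted p = 0.0166 in edgeR) seen in every library. Of the 42 replication genes, 16 were higher in Gfra1+ only cells and none lower, and of 74 other G2 and mitosis genes 8 were higher and 2 lower. With spermatid-rich and somatic-marker cells left out, 19 of the 48 members were higher against 15.1% of genes, and 1 lower against 14.5%. The 4 calls, with 13.6% of genes called in either direction, became 18 without CTRL 2 (27.9%), 0 without CTRL 1 (5.8%) and 1 without either BU library (5.46% and 6.41%).

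Kit+ only cells had 4 members lower than Gfra1+ only cells (Cdk1, Smc4, Ccnb2 and Ncapg), against 13.4% of genes, and none higher, against 10%. Cdk1 differed by -0.95 ± 0.19 (edgeR adjusted p = 0.00576). In Kit+ only cells it stood at 30.1 and 18.3 CPM in the CTRL libraries (3 and 7 UMIs) and 55.6 and 102 CPM in the BU libraries. Against Sox3+ only cells, Ckap2l (0.69 ± 0.18) and Kif2c (0.59 ± 0.18) were higher in Kit+ only cells, 2 members against 5.77% of genes, and none was lower against 8.97%. In both contrasts these counts were not above the background. With spermatid-rich and somatic-marker cells left out these counts were 2 higher and 7 lower than Gfra1+ only cells (18.3% and 21.9% of genes), and 11 higher and 1 lower than Sox3+ only cells (12.7% and 16%). CTRL and BU libraries were also fitted apart. The 2 fits called very unlike parts of all genes, so comparing their counts is no test of a difference between CTRL and BU. In CTRL libraries alone (10 and 15 Kit+ only cells), 0 members were higher and 6 lower than Gfra1+ only cells (1.17% and 0.581% of genes). In BU libraries alone 9 were higher and 7 lower (22.1% and 24.5%), neither above the background. The members' median log2 difference was -1.11 in CTRL and 0.07 in BU, against -0.20 and 0.0004 over all genes in the same fits. Against Sox3+ only cells 0 were higher and 5 lower in CTRL (4.84% and 1.99%), and 15 higher and 0 lower in BU (11.9% and 14.7%). The 4 calls against Gfra1+ only cells (23.4% of genes called in either direction) became 15 without CTRL 2 (41.9%), 0 without BU 1 (4.87%) and 1 without BU 2 (5.49%). The 2 against Sox3+ only cells (14.7%) became 13 without CTRL 2 (25.2%) and 0 without CTRL 1, BU 1 or BU 2 (7.48%, 0.672% and 0.0248%).

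Whether busulfan cells differed from CTRL by more in one class than in another was tested by the class by condition term. Between Sox3+ only and Gfra1+ only cells 0 members passed in edgeR (3 higher and 2 lower at an unadjusted p under 0.05), 0 in DESeq2, and 0.0246% of all genes passed as higher. At that unadjusted p in edgeR, 427 of 12213 genes were higher. Between Kit+ only and Gfra1+ only cells 9 members passed, all with a larger BU difference in Kit+ only cells, against 0.77% of genes higher and 2.88% lower. They were Nusap1, Kif11, Kif23, Cenpa, Prc1, Top2a, Tpx2, Ube2c and Smc4, with differences from 1.07 to 1.89 on the log2 scale in the 8 other than Nusap1. Between Kit+ only and Sox3+ only cells Nusap1, Aurkb and Ube2c passed, against 0.68% of genes. Top2a in Kit+ only cells stood at 40.2 CPM (CTRL 1, 4 UMIs), 110.0 CPM (CTRL 2, 42 UMIs), 352 CPM (BU 1) and 452 CPM (BU 2). Both BU libraries were far above both CTRL libraries.

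These differences rest on few CTRL cells. The CTRL libraries held 10 and 15 Kit+ only cells, the BU libraries 152 and 53. Nusap1 had 0 UMIs among the 89967 of CTRL 1, where 3 UMIs would be 33.3 CPM, and 4 in CTRL 2, so its fitted difference depends on the prior count and is no measured fold. The other members called also had few UMIs there. In CTRL 1 and CTRL 2 they had 2 and 9 (Kif11), 3 and 6 (Kif23), 20 and 16 (Cenpa), 3 and 25 (Prc1) and 4 and 42 (Top2a). Tpx2 had 2 and 14, Ube2c 5 and 14, Smc4 5 and 30 and Aurkb 3 and 10. In CTRL 2 the Kit+ only cells held 20586 CPM of spermatid markers and 10375 CPM of somatic markers, against 534, 514 and 1199 CPM and 100.04, 22.3 and 34.7 CPM in CTRL 1, BU 1 and BU 2. With spermatid-rich and somatic-marker cells left out, which removed 6 of the 15, 0 members passed in either Kit+ contrast. At an unadjusted p under 0.05 in edgeR, 12 members were higher against Gfra1+ only and 12 against Sox3+ only cells. Of all 11852 genes, 717 and 675 were higher at that p, and 0 and 1 members were lower. In this form Mki67 passed between Sox3+ only and Gfra1+ only cells, where 0.304% of genes did. The 9 and 3 calls (3.65% and 3.71% of genes in either direction) became 24 and 31 without CTRL 1 (16.7% and 21%), each with Kif2c as the 1 member lower, and 0 without CTRL 2, BU 1 or BU 2 (0% to 0.283%).

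Within libraries, most members varied with the rest from cell to cell, and a few did so weakly. For each member, Pearson's r was computed across cells thinned to 5000 UMIs between its log-scaled level and the summed share of the other 47. These values describe cells of 1 library each (1007 to 2826 cells) and carry no p. Mki67 had the highest mean r, at 0.42, 0.63, 0.50 and 0.60 in CTRL 1, CTRL 2, BU 1 and BU 2, followed by Top2a (0.47, 0.55, 0.48 and 0.60) and Cenpf (0.38, 0.49, 0.50 and 0.62). The lowest were Foxm1 (0.10, 0.13, 0.05 and 0.12), Cdc25c (0.05, 0.06, 0.15 and 0.17) and Cdc25b (0.07, 0.09, 0.11 and 0.19). In sparse counts r also depends on how many UMIs a gene has, and CTRL 1 held 172 thinned UMIs of Foxm1 and 63 of Cdc25b. Mki67 had only 235 there and Cdc25c 562. In CTRL 2, BU 1 and BU 2 the order was reversed, with 367, 1472 and 875 of Mki67 against 117, 271 and 119 of Cdc25c. Without thinning the means were 0.64, 0.62 and 0.57 for the highest 3, and 0.23, 0.23 and 0.27 for the lowest.

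**Figure D5:**
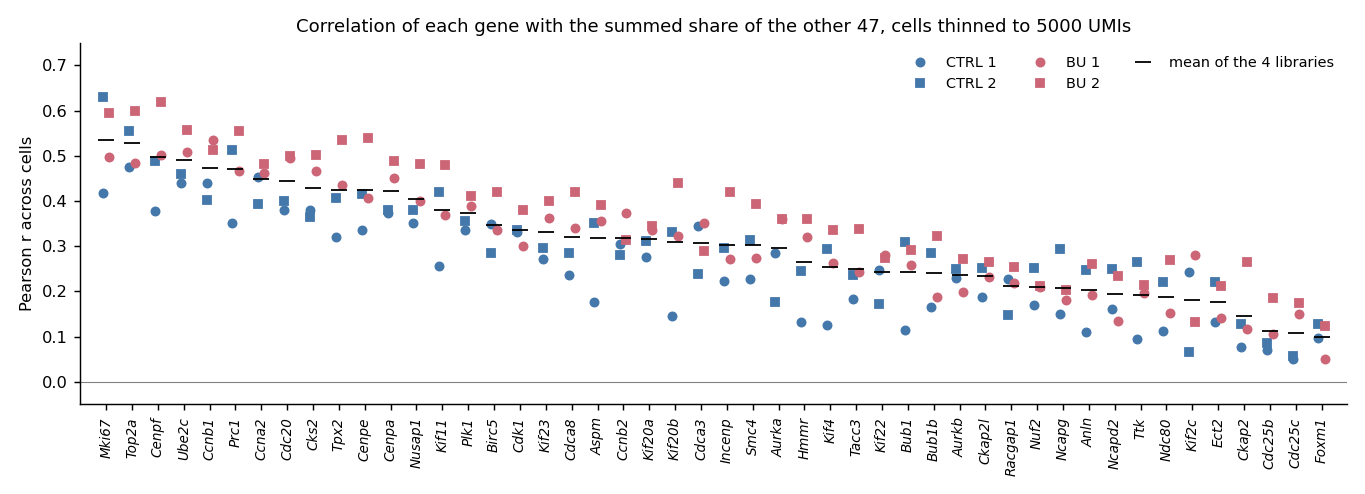
Pearson's r (vertical axis) across thinned cells between each gene of the 48 and the summed share of the other 47, 1 point per library and a black dash at the mean of the 4. Genes are ordered by their mean, with Mki67 at the left (mean 0.54) and Foxm1 at the right (0.10).

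Kif2c stood apart in another respect. In cells with over 5% of UMIs from protamine and transition protein genes (Prm1, Prm2, Tnp1 and Tnp2), which package sperm chromatin, the share of UMIs in the 48 genes was 0.0877 and 0.0818% without busulfan and 0.159 and 0.120% after it, below the shares of all passing cells. Kif2c was at 622, 472, 474 and 465 CPM of all UMIs in these cells (241, 1492, 49 and 1134 UMIs), against 58.8, 51.7, 93.8 and 82.3 CPM in the other cells of the same libraries. It was higher in the spermatid-rich cells of all 4 libraries, which held 34, 94, 7 and 59 such cells. In these cells the median of the other 47 members was 2.58, 4.11, 19.3 and 9.84 CPM. This was seen after the values were known and was not tested. CTRL 2 and BU 2 held most of these cells, so the level of Kif2c over all passing cells includes them.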

How the data were processed

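Single-cell libraries of sorted A_undiff were made on a 10x Chromium controller. The files deposited by the authors hold raw UMI counts for each gene in each called cell, as Cell Ranger wrote them (filtered matrices, header version 3.0.2). The study's methods name mm10 and the submitters' processing notes GRCm39 and Seurat 3.2, so coordinates are printed only for RefSeq promoters. The libraries held 26802228 (CTRL 1), 39904588 (CTRL 2), 21136369 (BU 1) and 53579969 (BU 2) UMIs, of which the 48 genes had 93826, 147748, 131887 and 318903 in passing cells.

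Genes were matched by identifier, and UMIs were summed per library and class and tested with edgeR 4.0.16 (R 4.3.3; filterByExpr, TMM, quasi-likelihood test, Benjamini-Hochberg adjustment over all genes tested, threshold 0.05), with condition as the only term because the study's own test had none for the experiment. DESeq2 1.42.0 was an alternative. The gene that defines a class was left out of its test. P-values measure the spread between these 4 pooled libraries, not between mice. The labels tie the library numbers to an experiment, and across genes CTRL 1 departed from the CTRL mean as BU 1 did from the BU mean, with correlations of 0.779 in all passing, 0.664 in Gfra1+, 0.615 in Sox3+ and 0.490 in Kit+ cells. With the replicate block the biological coefficient of variation in all passing cells went from 0.527 to 0.223. On simulated data with 200 genes changed by 2 on the log2 scale and a shift between experiments, condition alone recovered 0% in each class and the blocked fit 93.5, 97.5, 94 and 75.5% in all passing, Gfra1+, Sox3+ and Kit+ cells. With no such shift, condition alone recovered 94, 96, 94.5 and 78%. For a log2 change of 1 with the shift, the blocked fit recovered 11, 11.5, 37.5 and 2%. The simulated shift was the same in CTRL and BU, and all genes had the same dispersion, taken from the blocked fit. The rates therefore do not carry over to these libraries.

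Doublets were kept in the main analysis. As an alternative, the highest scrublet scores of scanpy 1.11.5 (under Python 3.11.15 with pandas 2.3.3, scipy 1.17.1 and numpy 2.4.6) were left out at 0.8% per 1000 cells, 77, 10, 32 and 13 cells of CTRL 1, CTRL 2, BU 1 and BU 2. Figures were drawn with matplotlib 3.10.9. The members, the gene lists and the tests were chosen with earlier results of these data known. Full values go to 35 members: those the study's text names, the 2 with the most UMIs of each role, the departing members, and the 3 highest and 3 lowest in correlation with the rest. The search for departing members, transcript length, the Kif2c values, the shared barcodes and the combination of cell choices with the block include steps added after the data were seen. Other alternatives were no filter on low counts, a fold above 1.5, classes by a UMI after thinning, under 10% mitochondrial UMIs, spermatid-rich (over 5% protamine and transition protein UMIs) and somatic-marker (3 or more markers) cells left out, and each library left out.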

Additional observations from a re-analysis of the deposited data

Results flagged for a closer look

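The difference between BU and CTRL was itself different between cell classes for 10 of the 48 genes, by the class by condition term of edgeR with the library as a block. Values are the log2 BU minus CTRL change in Kit+ only cells minus that in the other class, ± SE, with p adjusted over all 12213 genes. Against Gfra1+ only cells, the values were 2.45 ± 0.55 for Nusap1 (adjusted p = 0.0331), 1.89 ± 0.41 for Kif11 (adjusted p = 0.03), 1.72 ± 0.43 for Kif23 (adjusted p = 0.04996), 1.68 ± 0.39 for Cenpa (adjusted p = 0.0377) and 1.47 ± 0.30 for Prc1 (adjusted p = 0.0233). They were 1.42 ± 0.31 for Top2a (adjusted p = 0.0292), 1.42 ± 0.32 for Tpx2 (adjusted p = 0.0322), 1.32 ± 0.29 for Ube2c (adjusted p = 0.0304) and 1.07 ± 0.26 for Smc4 (adjusted p = 0.041) in the same contrast. Against Sox3+ only cells, they were 2.27 ± 0.56 for Nusap1 (adjusted p = 0.0487), 1.49 ± 0.35 for Aurkb (adjusted p = 0.0418) and 1.35 ± 0.29 for Ube2c (adjusted p = 0.0295). All are positive, so the BU difference was larger in Kit+ only cells, of which CTRL 1 held 10 and CTRL 2 held 15. Both Nusap1 values rest on 0 and 4 UMIs in the CTRL libraries, depend on the prior count and are no measured fold. The values of the other genes each rest on 2 to 20 UMIs in CTRL 1 and 6 to 42 in CTRL 2. The 9 and 3 calls stand against 0.77% and 0.68% of genes higher. DESeq2 called 5 of the 48 in the first contrast (0.729% of genes higher) and 1 in the second (0.54%), and 0 were called in either when spermatid-rich and somatic-marker cells were left out.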

How the results depend on the processing

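The higher share of UMIs and the higher percent of cells above 0.5% in BU kept their sign in all 91 alternatives tried over the 4 sets of cells. Those that left out a library could not change it, since both BU libraries lay above both CTRL libraries in every set. The replicate block could not either, since its value equals the main value by calculation. The difference in share was 0.248, 0.194, 0.269 and 0.354 percentage points in all passing, Gfra1+, Sox3+ and Kit+ cells, the same as the mean of the within-experiment differences that a replicate block gives. It ranged over 0.233 to 0.263, 0.153 to 0.235, 0.235 to 0.304 and 0.295 to 0.412 when a library was left out, and the percent of cells over 26.1 to 34.7, 19.7 to 24.9, 36.2 to 40.5 and 39.4 to 60.7 percentage points.

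Counts of single genes past the test depended on the settings, and the cause was not tested. Beside each count, the percent of all genes tested that passed in either direction stands in parentheses. In all passing cells, 0 without the block (0%) became 3 with the replicate block (1.49%), 18 with DESeq2 and the block (4.18%), 22 with the block and spermatid-rich and somatic-marker cells left out (9.76%), and 4 with the block and shared-barcode copies left out (1.52%). In Gfra1+ cells the count was 0 without (0%) and with the replicate block (0.066%). In Sox3+ cells, 0 (0%) became 14 with the block (5.69%), 5 with DESeq2 (2.31%), 22 with DESeq2 and the block (5.25%), and 5 with no filter on low counts (1.71%). Together with the block it was 30 with classes by a UMI after thinning (20.3%), 14 under 10% mitochondrial UMIs (4.59%), 16 with spermatid-rich and somatic-marker cells left out (6.67%), 21 without doublets (7.84%) and 14 without copies (5.01%). In Kit+ cells, 0 (0%) became 4 with the block (0.952%), 1 with DESeq2 and the block (0.381%), and 9 with no filter (2.87%). With the block it was 21 under 10% mitochondrial UMIs (3.75%), and 1 without spermatid-rich and somatic-marker cells (0.758%), without doublets (0.738%) or without copies (0.68%). When a library was left out, the counts were 0 in all passing and Gfra1+ cells (at most 0.549% and 0.179% of genes), 0 to 17 in Sox3+ cells, 17 without CTRL 2 (9.01%), and 0 to 15 in Kit+ cells, 15 without CTRL 2 (2.95%) and 7 without CTRL 1 (6.87%), where the group left with 1 library was assumed to vary like the other.

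Between Gfra1+ only and Sox3+ only cells, 4 calls (13.6%) became 0 with no library block (5.36%), 8 with DESeq2 (19.2%), 15 in BU libraries alone (23.8%), 20 without spermatid-rich and somatic-marker cells (29.5%), and 0 to 18 without a library, 18 without CTRL 2 (27.9%), 0 without CTRL 1 (5.8%) and 1 without BU 1 (5.46%) or BU 2 (6.41%). For Kit+ only against Gfra1+ only cells, 4 (23.4%) became 1 (9.45%), 8 (29%), 16 (46.5%) and 9 (40.2%) in the same order, 8 with no filter (16.5%), and 0 to 15 without a library, 15 without CTRL 2 (41.9%), 0 without BU 1 (4.87%) and 1 without BU 2 (5.49%). For Kit+ only against Sox3+ only cells, 2 (14.7%) became 0 (1.61%), 4 (21.1%), 15 (26.6%) and 12 (28.7%), 4 with no filter (13.9%), 5 in CTRL libraries alone (6.83%), and 0 to 13 without a library, 13 without CTRL 2 (25.2%) and otherwise 0. The class by condition counts of 0, 9 and 3 (Sox3+ minus Gfra1+, Kit+ minus Gfra1+, Kit+ minus Sox3+, with 0.0246%, 3.65% and 3.71% of genes) were 1, 0 and 0 without spermatid-rich and somatic-marker cells (0.506%, 0.0253% and 0.11%) and 0, 5 and 1 with DESeq2 (0.0409%, 3.04% and 2.82%). Without a library they were 0 to 1, 0 to 24 and 0 to 31, highest without CTRL 1 (2.42%, 16.7% and 21%) and 0 without any other library.

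Of 2448 alternatives for the 35 named members, 33 changed the sign of a value that passed no test, the largest of them 0.430 on the log2 scale, among Cdca8, Racgap1, Cks2, Ndc80, Ckap2, Bub1b, Cdc25c and Cdc25b. With 2 libraries per group, kit and lane nested in experiment and 36 and 37 Kit+ cells in CTRL, small changes of single genes could not be told apart from library differences.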
